A study of Petunia x hybrida with 8 samples.

Results

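Wide ChIP peaks of 500 bases or more were described in the corolla (the petals) of Petunia x hybrida. They were chosen by their width, the end minus the start in the authors' peak lists, on scaffolds that carry at least 1 gene ID of the RNA count table. The list named pODO1 held 398 such peaks of 98009, and the list named 35S held 392 of 103755. These 790 peaks of 201764 were therefore chosen on a measured value, and the other values of the same list are given as a description with no test. Of all peaks, 88962 in the pODO1 list and 94110 in the 35S list lay on scaffolds with a gene ID, and "all peaks" refers to these below. At the threshold, the 7 pODO1 members of exactly 500 bases had 3.57-fold to 8.58-fold enrichment and the 4 peaks of 499 bases had 3.40-fold to 9.01-fold. In the 35S list the 2 members of 500 bases had 3.35-fold and 3.798-fold enrichment, and the 4 peaks of 499 bases 3.21-fold to 6.30-fold.

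The peaks came from anti-GFP immunoprecipitation of crosslinked corolla chromatin, with 1 library named pODO1 and 1 named 35S. The names are read as a GFP-carrying ODO1 driven by its own promoter or by 35S, a strong plant virus promoter, which the labels do not spell out. The labels give no untransformed control library, plant age or line for either construct. Corolla RNA was sequenced in 3 wild type libraries and 3 libraries named odo1i, taken to mean silencing of ODO1, although no label says so. No gene names were paired with the IDs, so neither the level of ODO1 nor marker genes of the corolla were checked here.

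ODORANT1 (ODO1), a MYB transcription factor of the R2R3 class, is known in petunia for regulating genes of the shikimate pathway, which feeds the floral scent compounds made in petals. A transcription factor bound at a short sequence usually gives a narrow ChIP peak around that site. Peak callers such as MACS2 join neighbouring positions past their threshold into a single interval, so a wide peak can hold several nearby sites or a broad stretch of enriched chromatin, and its summit marks the highest point.

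Wide peaks were several times as long as a typical peak, and few were longer than 800 bases. The median width was 559 bases in pODO1 and 572 bases in 35S, against 134 and 129 bases over all peaks. Widths of 500 to under 600 bases made up 265 pODO1 and 233 35S members, 600 to under 800 bases 93 and 113, and 800 bases or more 40 and 46. The longest pODO1 member reached 4976 bases, and the longest 35S member 2251 bases. Members lay on 295 scaffolds in pODO1 and 299 in 35S, and 127 scaffolds carried members of both lists. Most of these scaffolds carried a single member of a list, 233 in pODO1 and 234 in 35S.

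The strength of a peak is given by the authors' fold enrichment, read as the signal relative to the local background of the caller, and by −log10 q, which rises with the caller's confidence. Wide pODO1 peaks had a median fold enrichment of 5.09 (range 2.41 to 16.97), against 4.29 over all pODO1 peaks. Wide 35S peaks had a median of 4.46 (2.05 to 19.47), against 3.67. The median −log10 q was 8.17 against 4.20 in pODO1, and 6.83 against 3.98 in 35S. A typical member was thus only slightly more enriched than other peaks, and the difference was larger at the top of the range. At least 8-fold enrichment was reached by 38 pODO1 members (9.55%) and 44 35S members (11.2%), against 1.09% and 0.287% of all peaks.

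Within the 35S list wider members were also more enriched, whereas within the pODO1 list width and fold enrichment showed almost no rank correlation. Spearman's rho across members was 0.36 in 35S (n = 392) and 0.02 in pODO1 (n = 398), as a description, since the points of a list share 1 library and its background. Over these 3 width classes, from narrow to wide, the median fold enrichment in 35S was 4.20, 4.74 and 6.67. The same medians in pODO1 were 4.95, 5.30 and 4.87. The widest pODO1 class held both weak and strong peaks, with quartiles of 2.72-fold and 8.94-fold. The median −log10 q increased with width in both lists, from 7.26 through 9.42 to 24.2 in pODO1 and from 5.99 through 8.87 to 29.2 in 35S.

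**Figure D1:**
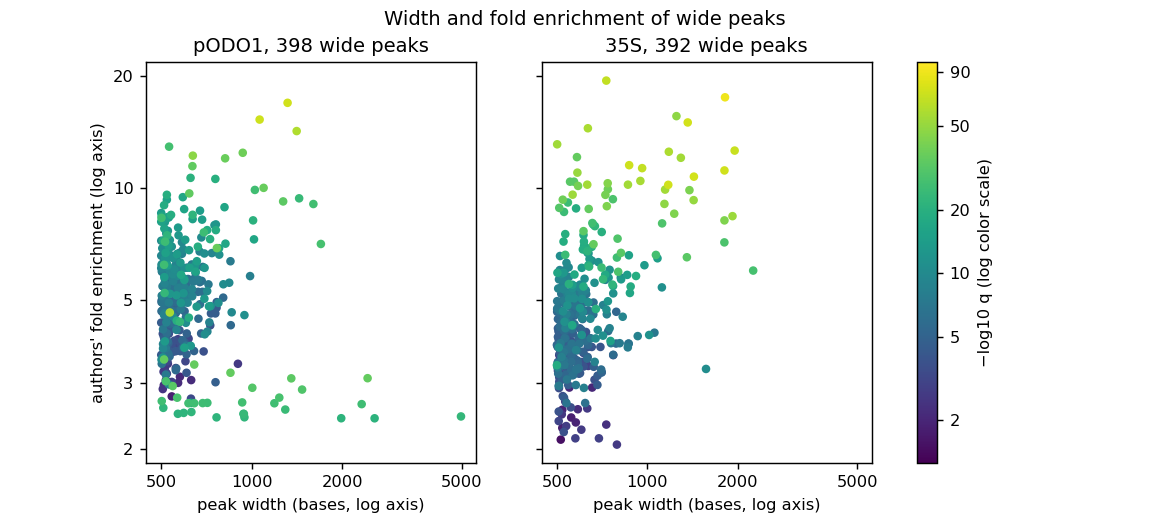
Width (x, bases, log axis) and the authors' fold enrichment (y, log axis) of the 398 wide pODO1 and 392 wide 35S peaks, 1 point per peak, colored by −log10 q on a log color scale. In pODO1 a group under 3-fold reaches 4976 bases although its −log10 q is 20 or more, and 35S has no such peak among its members.

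Some wide pODO1 peaks had low enrichment together with high confidence. A class with under 3-fold enrichment and a −log10 q of at least 20 was set after the values were seen. It held 25 wide pODO1 peaks on 10 scaffolds and 0 wide 35S peaks. Among peaks of any width it held 38 pODO1 peaks and 1 35S peak, the latter 139 bases wide. Among all peaks under 3-fold the median −log10 q was 1.67 in pODO1 and 2.06 in 35S, and the 32 35S members under 3-fold had 1.51 to 8.37. The 25 peaks had a median width of 930 bases (502 to 4976), and the fold enrichment ranged from 2.41 to 2.94. Peaxi162Scf00032 carried 8 of them, Peaxi162Scf00905 carried 4, and Peaxi162Scf00046 and Peaxi162Scf00331 carried 3 each.

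Of the 5 widest pODO1 members, 4 belonged to these weak peaks of high confidence. The widest, at 188296 to 193271 of Peaxi162Scf01021, had 2.44-fold enrichment, a −log10 q of 22.7 and a summit 171 bases from its start. The next, at 2737227 to 2739792 of Peaxi162Scf00032, was 2566 bases wide with 2.41-fold enrichment. The third, at 675088 to 677519 of Peaxi162Scf00046, was 2432 bases wide with 3.09-fold enrichment and a −log10 q of 34.8, just outside the class by its fold. In each of these 3 peaks the 35S pieces covered only 11.1% to 16.6% of the interval. The widest 35S members were strong instead, as the peak of 1953 bases at 303982 to 305934 of Peaxi162Scf00357 had 12.6-fold enrichment. At 696553 to 698366 of Peaxi162Scf00488 the 35S peak was 1814 bases wide with 17.6-fold enrichment and a −log10 q of 88.9, the highest among all 35S peaks. The widest 35S member, at 1049226 to 1051476 of Peaxi162Scf00163, had 6.01-fold enrichment and its summit 2111 bases from the start, near its end.

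Summits of wide peaks were spread over the whole interval rather than gathered at its centre. The summit fell in the central 50% of the width in 202 pODO1 members (50.8%, 95% Wilson interval 45.9 to 55.6) and 206 35S members (52.6%, 47.6 to 57.5). Over all peaks the share was 75% in pODO1 and 71.0% in 35S. Within 10% of the width from either edge lay 11.6% and 12.0% of member summits, against 4.38% and 6.33% of all. With the interval cut into 8 equal bins, each bin held 8.54% to 16.3% of pODO1 summits and 9.69% to 14.8% of 35S summits. Summits in the first 50% of the width made up 54.5% in pODO1 and 48.2% in 35S. Intervals cover counting error only, and peaks that share a scaffold are not independent.

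**Figure D2:**
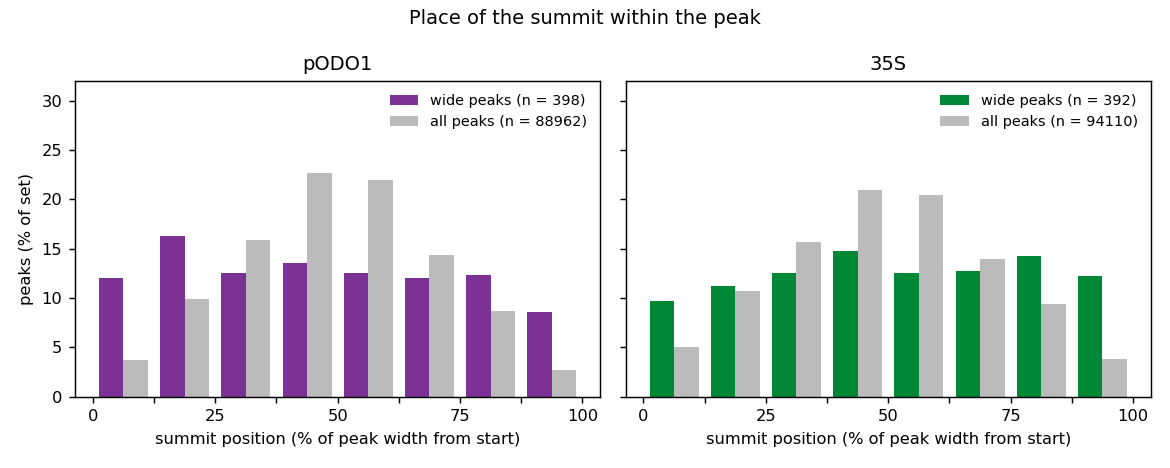
Place of the summit as a percentage of peak width from the start (x, 8 bins) against the percentage of peaks in each bin (y), for wide peaks (colored bars) and all peaks of the list on scaffolds with a gene ID (grey bars). Grey bars rise to 22.7% in pODO1 and 21.0% in 35S near the centre, while those of wide peaks stay between 8.54% and 16.3%.

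Most wide peaks had a counterpart in the other list, more often than other peaks. At least 1 base overlapped a 35S peak in 359 of 398 pODO1 members (90.2%, 86.9 to 92.8), where 43.3% of all pODO1 peaks did. In the other direction 348 of 392 35S members (88.8%, 85.3 to 91.5) overlapped a pODO1 peak, against 41.1%. A wide interval has more bases that can overlap, so the summit base alone was also used. It lay inside a peak of the other list in 282 pODO1 members (70.9%) against 37.3% of all, and in 279 35S members (71.2%) against 35.6%. With 1 library per construct no replicate check of these shares was possible, and whether they come from the construct or from the library cannot be told apart.

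The counterpart was usually a single shorter peak, and a part of the members was broken into several pieces in the other list. Of the pODO1 members 39 had no piece, 258 had 1, 93 had 2, 7 had 3 and 1 had 4. The 35S members had no piece in 44 cases, 1 in 263, 2 in 79, 3 in 5 and 4 in 1. Several pieces occurred in 25.4% of pODO1 and 21.7% of 35S members, against 0.482% and 0.333% of all peaks. The narrowest peaks had 96 bases in pODO1 and 90 bases in 35S, so a peak of typical width has little room for 2 pieces. The choice of members by width therefore favours this contrast. In overlapping members the pieces covered a median of 59.1% of the interval in pODO1 and 57.4% in 35S. Over all overlapping peaks, most of them short, the median was 82.1% and 85.6%. The nearest summit among the pieces lay a median of 62 bases from the member's own summit in pODO1 and 57 bases in 35S, against 29 bases in each list over all overlapping peaks.

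The members with most pieces showed the break-up at single sites. The 35S peak at 1049226 to 1051476 of Peaxi162Scf00163 covered 4 pODO1 peaks of 149 to 651 bases with 5.97-fold to 6.63-fold enrichment, separated by gaps of 97 to 520 bases. Its summit was 1 base from the nearest summit among these pieces. On Peaxi162Scf00721, the pODO1 peak at 448552 to 449906 covered 4 35S peaks of 116 to 326 bases with only 1.54-fold to 2.10-fold enrichment. The 35S peak at 261943 to 263748 of Peaxi162Scf00858 held 3 pODO1 pieces of 3.65-fold to 7.62-fold enrichment, and its summit fell on the same base as that of a piece. The pODO1 peak at 1026054 to 1027071 of Peaxi162Scf00079, enriched 7.29-fold, held 3 35S pieces that covered 47.2%, and its own summit base lay in none of them.

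Member strength went along with strength in the other list. Spearman's rho between a member's fold enrichment and that of its strongest piece was 0.61 in pODO1 (n = 359) and 0.53 in 35S (n = 348), against 0.42 in each list over all overlapping peaks. These are descriptions across peaks that share both libraries, any control and the local chromatin. Of the 38 pODO1 members of at least 8-fold, 37 overlapped a 35S peak and 22 overlapped a wide one. All 44 35S members of at least 8-fold overlapped a pODO1 peak and 20 overlapped a wide one. Strong peaks of any width often had a counterpart too, so this overlap is not particular to wide peaks. Over all peaks, 965 pODO1 peaks reached 8-fold, and 869 35S peaks had a strongest pODO1 piece of at least 8-fold. In the other direction, 270 35S peaks reached 8-fold and 242 pODO1 peaks had such a 35S piece. The 25 weak pODO1 members of high confidence differed from the strong members, since 21 overlapped a 35S peak but 0 overlapped a wide one. Their strongest 35S piece had 1.32-fold to 1.82-fold enrichment, and the pieces covered a median of 18.2%.

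Overlapping peaks wide in both lists formed 78 pairs on 72 scaffolds, with 78 pODO1 members (19.6%) and 77 35S members (19.6%). The shorter peak of a pair was usually contained in the longer one, as the shared bases made up a median of 100% of the shorter peak and 85.0% of the joint interval. Summits of a pair lay a median of 67.5 bases apart (0 to 1061), within 100 bases in 44 pairs and over 300 bases apart in 14. The 35S peak was the wider in 52 pairs, and the pODO1 peak had the higher fold enrichment in 54. A higher fold in one list is not a difference in binding, since backgrounds and depths of the ChIP libraries were not analysed here. Wide peaks were more often paired the wider they were, 13.6%, 26.9% and 42.5% over the 3 width classes in pODO1 and 13.7%, 20.4% and 47.8% in 35S.

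The pair of highest mean fold enrichment lay on Peaxi162Scf00357, where the pODO1 peak at 304588 to 305904 had 17.0-fold and the 35S peak 12.6-fold enrichment. Its summits lay 312 bases apart, so the highest point was placed differently inside a shared interval. On Peaxi162Scf00578 the pODO1 peak at 157585 to 158518 had 12.46-fold and the 35S peak at 157240 to 158602 had 15.03-fold enrichment, with summits 10 bases apart. The pair on Peaxi162Scf00488 had 9.08-fold enrichment in pODO1 and 17.6-fold in 35S, with summits 20 bases apart and each near the end of its peak. On Peaxi162Scf00114 the pODO1 peak at 10404 to 11466 reached 15.3-fold and the 35S peak at 10334 to 11507 reached 10.2-fold, with summits 26 bases apart. The pair at 209276 to 210687 of Peaxi162Scf01086 had almost the same borders in both lists (98.8% of the joint interval), 14.3-fold and 10.8-fold enrichment and summits 273 bases apart. The largest summit distance, 1061 bases, was in the pair at 948956 to 950655 of Peaxi162Scf00123, with 7.09-fold and 8.42-fold enrichment. Strong wide sites thus included both pairs with nearly the same summit and pairs whose summits lay over 250 bases apart.

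**Figure D3:**
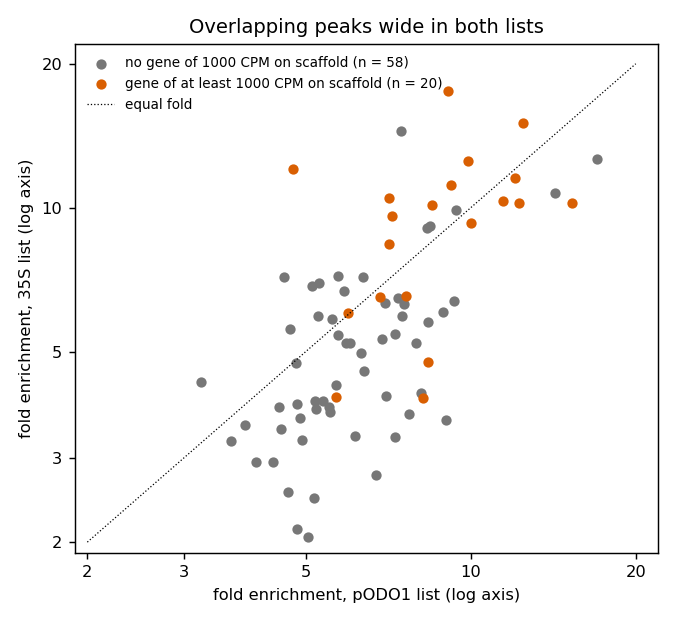
Fold enrichment in the pODO1 list (x, log axis) and in the 35S list (y, log axis) of the 78 overlapping pairs of peaks wide in both lists, 1 point per pair, with the line of equal fold dotted. Orange points are the 20 pairs whose scaffold has a gene of at least 1000 CPM on average, and 54 points lie below the line.

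Wide peaks had other peaks of their own list close by more often than usual. The nearest peak of the same list was a median of 816 bases away in pODO1 and 540 bases in 35S, against 2291 and 1999 bases over all peaks. Another peak lay within 1000 bases of 216 pODO1 members (54.3%) and 260 35S members (66.3%), against 31.1% and 34.4%. At least 2 peaks within 1000 bases were found for 21.4% and 34.4% of members, against 7.42% and 9.57%. Members of 800 bases or more had a close neighbour in 62.5% of cases in pODO1 and 76.1% in 35S. These values belong to the same lists as the width and are a description.

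Some wide peaks stood in runs, here members of a list separated by at most 5000 bases. There were 15 runs with 43 members (10.8%) in pODO1 and 22 runs with 52 members (13.3%) in 35S, and 7 and 6 of them held 3 or more members. The largest pODO1 run, at 2761942 to 2776257 of Peaxi162Scf00032, held 6 wide peaks of 2.43-fold to 3.03-fold enrichment among 16 pODO1 peaks of any width. A second run on that scaffold, at 2736082 to 2741868, held 3 wide peaks that filled 86.1% of the span, while 35S peaks filled 15.7%. The run at 443563 to 452035 of Peaxi162Scf00721 held 5 wide peaks of 2.48-fold to 4.64-fold enrichment. The run at 675088 to 683336 of Peaxi162Scf00046 held 4 that together with the narrow peaks filled 82.4% of the span, against 9.30% in 35S. The other 3 pODO1 runs of at least 3 members held 3 each, with 2.65-fold to 3.47-fold enrichment on Peaxi162Scf00905, 3.91-fold to 8.58-fold on Peaxi162Scf00780 and 3.25-fold to 9.32-fold on Peaxi162Scf00009. The 3 pODO1 runs with most members were therefore weakly enriched, while smaller runs also held strong peaks. In all, 17 of the 25 weak members of high confidence stood in runs.

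The 35S runs with most members held stronger peaks, and the pODO1 peaks in their spans reached similar fold enrichment. At 909785 to 914080 of Peaxi162Scf00163, 4 wide 35S peaks had 5.45-fold to 10.3-fold enrichment, and 5 pODO1 peaks in the span had 4.25-fold to 11.5-fold. At 1687628 to 1691333 of Peaxi162Scf00030, 4 wide 35S peaks filled 86.5% of the span with 4.29-fold to 9.92-fold enrichment, while 5 pODO1 peaks of at most 346 bases had 3.48-fold to 10.1-fold. The other 4 35S runs of at least 3 members held 3 each. The run at 57908 to 60814 of Peaxi162Scf00047 held 3 wide 35S peaks of 10.4-fold to 13.1-fold enrichment. On Peaxi162Scf00858, 3 wide 35S peaks at 260370 to 266142 had 8.20-fold to 11.3-fold enrichment. A second run of Peaxi162Scf00163, at 1048118 to 1052546, had wide peaks of 3.46-fold to 11.02-fold. The longest, at 830208 to 836140 of Peaxi162Scf00052, had wide peaks of 3.84-fold to 8.64-fold, and pODO1 peaks filled only 7.65% of its span. Over these 6 runs the most abundant gene of the scaffold averaged 3452 to 10416 CPM. Over the 7 pODO1 runs of at least 3 members it averaged 0.945 to 579 CPM. Peaxi162Scf00163 and Peaxi162Scf00032 each count for 2 of these runs. The ranges overlapped for runs of 2 members, with 58.2 to 9118 CPM in 35S and 10.7 to 5536 CPM in pODO1. The difference among the larger runs was seen after the fact and was not tested.

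**Figure D4:**
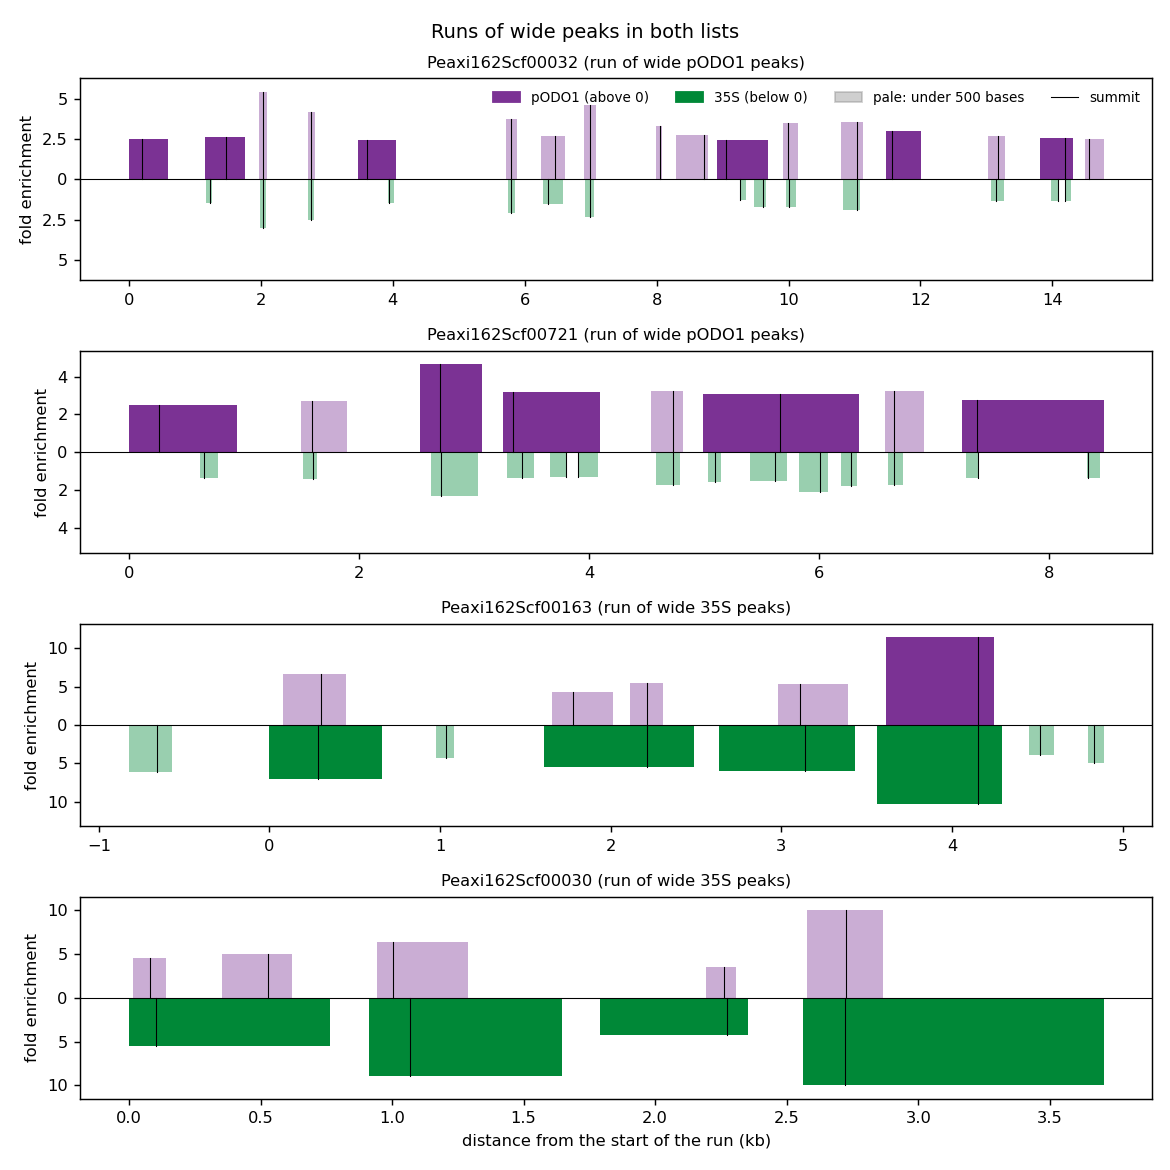
Maps of 2 runs of wide pODO1 peaks (upper 2 panels) and 2 runs of wide 35S peaks (lower 2 panels), with distance from the start of the run in kb (x) and fold enrichment (y), pODO1 above 0 and 35S below 0. Wide peaks are solid, narrower peaks pale and summits black lines, and the wide pODO1 peaks of the upper panels lie between 2.43-fold and 4.64-fold, whereas the wide 35S peaks of the lower panels lie between 4.29-fold and 10.3-fold.

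Scaffolds with very abundant corolla transcripts carried wide 35S peaks more often than their share of all peaks. CPM, used for RNA levels, sets a gene's counts against its library's scaled total, and 83 genes on 76 scaffolds averaged at least 1000 CPM over the 6 libraries. In the 35S list 84 members (21.4%, 17.7 to 25.8) lay on such a scaffold, against 8.65% of all 35S peaks. In the pODO1 list 44 members did (11.1%, 8.34 to 14.5), against 8.30%, a small difference beside the interval. Counted the other way, 1.03% of 35S peaks on these scaffolds were wide (0.834 to 1.28) against 0.358% elsewhere (0.320 to 0.400), and 0.596% (0.444 to 0.799) against 0.434% (0.391 to 0.481) in pODO1. The minimum of 1000 CPM was chosen with earlier results of these data known, so these shares are no independent support for that pattern.

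The share rose with width in both lists. It was 13.7%, 23.0% and 56.5% over the 3 width classes in 35S and 7.93%, 11.8% and 30% in pODO1. It was also high among strong members, with 29 of 44 35S members of at least 8-fold (65.9%) and 12 of 38 in pODO1 (31.6%). None of the 25 weak pODO1 members of high confidence lay on such a scaffold. The most abundant gene of their scaffold averaged a median of 80.3 CPM over these members (0.170 to 271). Counted once per scaffold, such a gene was present on 15.7% of the scaffolds with wide 35S peaks and on 11.2% of those with wide pODO1 peaks. It was present on 3.88% of all 1961 scaffolds with a gene ID. Scaffolds with a wide pODO1 peak and scaffolds with a wide 35S peak each carried a median of 25 gene IDs, against 7 over all scaffolds. In the 35S list the median last peak end was 1352043 bases on scaffolds with such a gene and 528896 without. These scaffold shares were not matched for length or gene number. Scaffolds are long, with a median last peak end, taken over peaks, of 1240165 bases for 35S members and 1291856 for all 35S peaks. The distance between a peak and a gene was not analysed here, so a shared scaffold does not make a gene the neighbour of a peak.

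**Figure D5:**
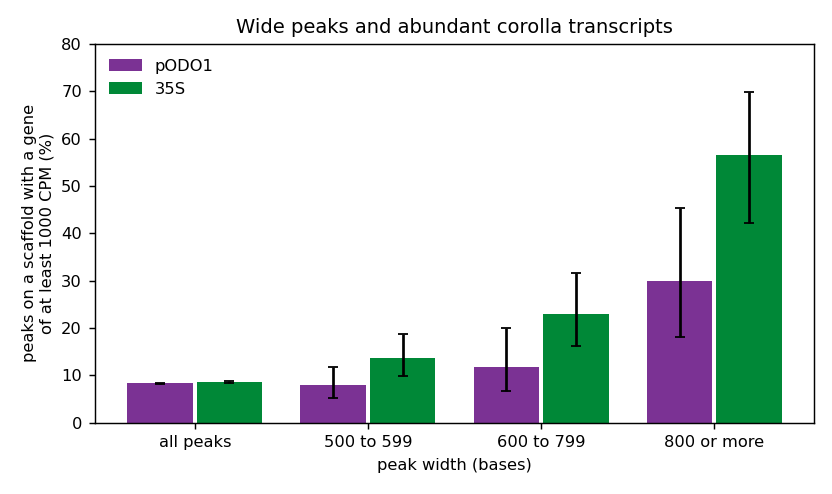
Percentage of peaks whose scaffold has a gene of at least 1000 CPM on average (y) by peak width in bases (x), for pODO1 and 35S, with 95% Wilson intervals as error bars. From all peaks to those of 800 bases or more the share goes from 8.65% to 56.5% in 35S and from 8.30% to 30% in pODO1.

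The 6 most abundant transcripts that shared a scaffold with a pair wide in both lists were present in every library, and none of them was called changed in odo1i. The RNA libraries held 18612881 to 20591367 counts, and the labels do not state whether replicates are separate plants, so a p-value covers only the spread among these libraries. Peaxi162Scf01081g00002 had 20162, 18884 and 12676 CPM in wild type replicates 1, 2 and 4 and 15306, 13584 and 10041 CPM in odo1i replicates 1, 2 and 4. The ranges of the groups overlapped, and the log2 fold change was -0.41 ± 0.32 (SE; edgeR quasi-likelihood test, Benjamini-Hochberg adjusted p = 0.592). Peaxi162Scf00488g00074, on the scaffold of the strongest 35S pair member, had 13201, 11814 and 7766 CPM in wild type and 7885, 6385 and 2889 CPM in odo1i. These groups overlapped slightly, with a log2 fold change of -0.93 ± 0.42 (edgeR, Benjamini-Hochberg adjusted p = 0.350). Peaxi162Scf00114g00001 had 8180, 6598 and 4982 CPM in wild type and 8254, 5255 and 4328 CPM in odo1i. Its groups lay in the same range, with a log2 fold change of -0.15 ± 0.33 (edgeR, Benjamini-Hochberg adjusted p = 0.878). Over the 6 most abundant genes of these scaffolds the edgeR adjusted p, after Benjamini-Hochberg, ranged from 0.293 to 0.878. All 6 had a negative log2 fold change, from -0.15 to -0.93. The groups of Peaxi162Scf00423g00512 did not overlap, with 8515, 7625 and 6453 CPM in wild type and 5318, 4977 and 2992 CPM in odo1i. Those of Peaxi162Scf00858g00215 did not either (11465, 13228 and 11191 against 10399, 9477 and 6737 CPM). In whole corolla, fewer cells of a type and less RNA per cell cannot be told apart.

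Genes on scaffolds with a wide peak changed in odo1i about as often as all genes tested. Among 8522 tested genes on the 467 scaffolds with a wide peak in either list, 29 were higher (0.340%) and 20 lower (0.235%) in odo1i, where 0.374% and 0.255% of all 17667 tested genes were. On scaffolds with a wide pODO1 peak 19 of 5623 were higher and 11 lower, and on scaffolds with a wide 35S peak 18 of 5947 were higher and 19 lower. On the 72 scaffolds of pairs 5 of 1715 were higher and 4 lower. The median log2 fold change was -0.02 on scaffolds with a wide peak and -0.03 over all tested genes. Genes were called at an adjusted p under 0.05 (edgeR quasi-likelihood test, Benjamini-Hochberg). The number called on these scaffolds changed when 1 library was left out. It was 0 without odo1i replicate 2, where 833 had an unadjusted p under 0.05 (edgeR), and 200 without wild type replicate 4. Over all genes tested edgeR called 0 and 435 in these fits.

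The called genes with the largest changes lay on scaffolds with 1 or 2 wide peaks of a list. Peaxi162Scf00049g02410 had 15.8, 14.9 and 20.3 CPM in wild type replicates 1, 2 and 4 and 195, 355 and 394 CPM in odo1i. The groups did not overlap, and its log2 fold change was 4.21 ± 0.31 (edgeR, Benjamini-Hochberg adjusted p = 0.00747). Peaxi162Scf00186g00093, on a scaffold with a pair wide in both lists, had 4.04, 2.46 and 4.17 CPM in wild type and 61.8, 43.7 and 71.1 CPM in odo1i. Every odo1i library was above every wild type library, with a log2 fold change of 4.05 ± 0.30 (edgeR, Benjamini-Hochberg adjusted p = 0.00747). Peaxi162Scf00007g02541, on a scaffold with 2 wide 35S peaks, had 49.1, 46.3 and 15.4 CPM in wild type and 1.65, 1.20 and 1.999 CPM in odo1i. It was lower in each odo1i library, with a log2 fold change of -4.51 ± 0.50 (edgeR, Benjamini-Hochberg adjusted p = 0.0258). Peaxi162Scf00467g00913 had 16.1, 20.5 and 29.4 CPM in wild type and 0.904, 1.25 and 1.07 CPM in odo1i. Its groups did not overlap either, with a log2 fold change of -4.35 ± 0.32 (edgeR, Benjamini-Hochberg adjusted p = 0.00747).

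These 4 genes kept their direction in every fit run, but their calls ended in some fits without 1 library. Such a fit also has fewer libraries, so a lost call does not show that the left-out library carried it. All 4 were called with DESeq2 (Benjamini-Hochberg adjusted p from 2.67e-41 to 5.83e-19). With the replicate number as a block they were called too (edgeR adjusted p from 0.0136 to 0.0311). Without odo1i replicate 2 the edgeR adjusted p (Benjamini-Hochberg) was 0.0715, 0.0613, 0.191 and 0.0715 in the order above. Leaving out wild type replicate 1 also ended the calls of Peaxi162Scf00049g02410 (edgeR adjusted p = 0.0548), Peaxi162Scf00186g00093 (0.0548) and Peaxi162Scf00007g02541 (0.0771). Leaving out odo1i replicate 1 ended those of Peaxi162Scf00186g00093 (edgeR adjusted p = 0.0513), Peaxi162Scf00467g00913 (0.0513) and Peaxi162Scf00007g02541 (0.0883). The call of Peaxi162Scf00007g02541 further ended when odo1i replicate 4 (edgeR adjusted p = 0.133) or wild type replicate 2 (0.0707) was left out, and with limma-voom (0.112). That of Peaxi162Scf00467g00913 ended without odo1i replicate 4 (edgeR adjusted p = 0.05495).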

How the data were processed

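Members and lists were chosen with earlier results of these data known. The authors deposited raw counts for each gene ID in 6 RNA libraries, primed with oligo-dT per the labels. For each ChIP library there is 1 peak list in the 10-column MACS2 layout, without a header, tied to the construct by its name. The authors' deposited values used from it are the fold enrichment (a ratio), −log10 p and −log10 q, and the summit offset from the peak start. Per the submitters' processing notes, cutadapt, TopHat2, HTSeq, DESeq2, Bowtie2 and MACS2 were used, without versions or roles. The ChIP control, caller settings, pooling, strand use in counting and the genome build behind the Peaxi162 names were not given in the sources used here. ChIP depth is unknown. Counts of genes that overlap, or that have near-identical copies, are uncertain. No genome sequence or annotation was used here. All columns were matched to samples by name, and 0 columns of per-sample values were left unused.

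Positions count from 1. Peak lists were read with pandas 2.3.3, NumPy 2.4.6 and SciPy 1.17.1 under Python 3.11.15 and plotted with matplotlib 3.10.9. Sharing needed 1 overlapping base, and shares have 95% Wilson intervals. The test of genes was that of edgeR 4.0.16 under R 4.3.3 (filterByExpr, TMM, two-sided quasi-likelihood test, Benjamini-Hochberg over 17667 genes, threshold 0.05), and CPM use TMM-scaled totals. The peak and gene code was tested on simulated data. Libraries of a group differed beyond sampling noise (chi-square 25.4 to 142 per degree of freedom). Alternatives were other width, q, fold and abundance minimums, other overlap rules, joined peaks, RLE scaling, no filter, DESeq2 1.42.0, limma-voom (limma 3.58.1), the replicate number as a block and leaving out each library.

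Named peaks are, per list, among the 5 widest, the 5 of highest fold enrichment and the 5 with most pieces, and the 5 pairs of highest mean fold. Named genes are among the 6 most abundant on scaffolds of pairs and the called genes of at least 1 CPM with the largest rise or fall, of which 2 per direction are printed because the IDs carry no names. Peaks in runs, the class of weak peaks of high confidence and the pair with the largest summit distance were singled out after their values were seen. So were Peaxi162Scf00071g00324 and Peaxi162Scf00071g00030.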

Additional observations from a re-analysis of the deposited data

How the results depend on the processing

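In pODO1 the overlapping share of 90.2% was 85.8% at a minimum width of 400 bases, 95% at 800 bases, 65.3% with a −log10 q of at least 5 in both lists, 57.2% with at least 4-fold in both lists, 85.9% with peaks within 200 bases joined and 54.8% with summits within 100 bases. In 35S the share of 88.8% was, in the same order, 85.1%, 97.8%, 69.0%, 79.5%, 81.7% and 55.4%, and 100% at 1000 bases. The summit base rule (70.9% and 71.2%) was chosen after seeing the data. Central summits in 35S were 42.3% at 1000 bases (11 of 26, 25.5 to 61.05), an interval that holds the main share of 52.6%. The share on scaffolds with an abundant transcript in pODO1 was 30% at 800 bases and 31.8% at 1000 bases (7 of 22, 16.4 to 52.7). It was 64.1% and 22.6% with minimums of 100 and 500 CPM. In 35S it was 14.5%, 56.5% and 61.5% at 400, 800 and 1000 bases, 71.9% and 30.9% at 100 and 500 CPM, and 15.7% with scaffolds as units. The cause of these shifts was not tested beyond the alternatives' own construction. Without the scaffold that carries the most members of a list the share was 11.4% in pODO1 and 20% in 35S, also added after seeing the data.

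The 49 genes called on scaffolds with a wide peak (0.575% of 8522 tested) were 50 with RLE scaling and 54 with limma-voom. Over all genes 111 of 17667 were called, and 112 and 117 with these alternatives. Without a filter 92 of 11336 were called, beside 179 of 23643 over all genes. With DESeq2 552 of 8739 were called (6.32%), beside 1093 of 18125 over all genes. At minimum widths of 400, 800 and 1000 bases edgeR called 88 of 13694 (0.643%), 10 of 1699 (0.589%) and 5 of 1027 (0.487%). Leaving out 1 library gave 0 to 200 calls, the 0 without odo1i replicate 2 (833 genes at an unadjusted p under 0.05) and the 200 without wild type replicate 4. These 200 were of 8676 tested, beside 435 of 17993 over all genes. Without odo1i replicates 1 and 4 the counts were 2 and 5, beside 4 and 10 over all genes. Without wild type replicates 1 and 2 they were 1 and 9, beside 3 and 21. With the replicate number as a block 99 of 8522 were called, beside 194 of 17667 over all genes, and 42 of the 99 were among the 49. Same-numbered libraries correlated at 0.189, 0.0977 and 0.115 in their deviations, each best with its own number, which is a hint from the data and not the design, so they were not treated as paired. Each construct had 1 ChIP library, its depth is unknown, and all peak values lack a replicate check.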

Other observations

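Peaks of 500 bases or more also lay on scaffolds without a gene ID, 22 in pODO1 and 19 in 35S. With them the share overlapping the other list was 90.5% of 420 pODO1 peaks and 88.8% of 411 35S peaks.

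Many members had exactly the same fold enrichment, p and q as a peak on another scaffold of the same list, 333 in pODO1 (83.7%) and 336 in 35S (85.7%), against 96.5% and 96.9% of all peaks.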
